A study of Mus musculus with 7 samples.

Results

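Several subunits of cytochrome oxidase (COX), the last enzyme of the mitochondrial respiratory chain, are encoded by a pair of nuclear genes. Here 4 such pairs were followed in muscle stem cells (MuSCs). They are Cox4i1 and Cox4i2, Cox6a1 and Cox6a2, Cox7a2 and Cox7a1, and Cox8a and Cox8b, which make 8 genes of the 56748 listed in the counts. The pairs were selected on the counts of these same libraries, with the difference between Jag2sm and WT MuSCs in view, and the 8 genes were then found by name. Their difference between the genotypes is therefore given as a description with no test. The study asked how gene expression differs in MuSCs that lack full function of JAG2, a ligand of NOTCH receptors.

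MuSCs were taken from hind limb muscle of adult mice by magnetic sorting, which removed CD31+, CD45+ and Sca1+ cells and kept Integrin alpha7+ cells. The study's culture methods kept MuSCs in growth medium with serum and bFGF, and its RNA isolation methods describe cultured cells. Its sequencing methods do not give the culture state of these samples. RNA of 3 WT and 4 homozygous Jag2sm samples was made into 7 barcoded direct cDNA libraries for long-read sequencing. Jag2sm is a naturally occurring missense allele with reduced function, present in every cell of the animal, although the labels give the genotype as Jag2-/-. Whether each sample came from 1 mouse is not given in the sources used here, so p-values measure the spread between these samples, which may be technical.

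COX passes electrons from cytochrome c to oxygen and pumps protons across the inner mitochondrial membrane. Its catalytic core is encoded by mitochondrial DNA, and the nuclear subunits around it stabilise the enzyme and tune its activity. Cox6a2, Cox7a1 and Cox8b are the forms of heart and skeletal muscle, and Cox8b is also known from brown fat, while Cox6a1, Cox7a2 and Cox8a are made in most tissues. Muscle forms replace much of the ubiquitous forms as muscle matures. Cox4i1 is the general form of subunit 4, and Cox4i2 is known mainly from lung and from smooth muscle and pericytes, so that pair is not a muscle pair.

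The isoforms of a pair are separate genes whose sequences differ enough to be told apart. Between the coding sequences of a pair, 70.3% of aligned bases were identical for Cox4i1 and Cox4i2, 66.6% for Cox6a1 and Cox6a2, 67.4% for Cox7a2 and Cox7a1 and 68.1% for Cox8a and Cox8b. The coding sequences of Cox8a (207 bases) and Cox8b (210 bases), the pair with the greatest log2 difference in its muscle form, are shown to let the isoforms be compared, from GENCODE M39.
Cox8a: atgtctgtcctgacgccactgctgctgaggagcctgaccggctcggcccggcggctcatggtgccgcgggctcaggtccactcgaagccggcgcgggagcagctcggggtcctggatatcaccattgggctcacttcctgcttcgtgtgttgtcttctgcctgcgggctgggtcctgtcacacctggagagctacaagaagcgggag
Cox8b: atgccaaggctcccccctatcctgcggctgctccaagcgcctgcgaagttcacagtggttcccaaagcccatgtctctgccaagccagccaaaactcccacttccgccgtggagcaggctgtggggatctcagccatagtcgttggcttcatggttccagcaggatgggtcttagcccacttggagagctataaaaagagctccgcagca

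Promoter sequences, from 250 bases before to 50 bases after the transcription start, were found in the RefSeq table (GRCm38.p6) for 5 of the 8 genes: Cox6a1, Cox7a2, Cox7a1, Cox8a and Cox8b. Each matched GRCm39 at 1 place. The 140 bases around the start of Cox8b (chr7:140480330-140480469, minus strand) and of Cox8a (chr19:7194952-7195091, minus strand), 110 before the start and 30 from it, are shown because this is a pair with a promoter in the table for both isoforms and with no overlap in its muscle form, and no promoter of Cox6a2 was found there. Capitals mark CAGCTG, an E box of the kind bound by myogenic factors, and TATAAA in Cox8b. In Cox8a they mark CCGGAA on either strand, the core of sites for ETS factors, wherever it lies whole in these bases.
Cox8b: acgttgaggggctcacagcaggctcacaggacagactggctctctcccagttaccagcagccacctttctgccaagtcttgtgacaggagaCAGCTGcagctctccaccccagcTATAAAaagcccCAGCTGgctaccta
Cox8a: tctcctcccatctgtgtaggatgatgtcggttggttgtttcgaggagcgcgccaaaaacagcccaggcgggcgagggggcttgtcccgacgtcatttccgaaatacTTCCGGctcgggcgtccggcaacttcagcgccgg
Cox8b held CAGCTG at 2 places, from -19 to -14 and from 17 to 22, where 1 is the first transcribed base. It held TATAAA from 5 to 10 and no CCGGAA. Over all 32851 promoters of this length, 16.3% held CAGCTG on either strand, 13.6% TATAAA and 14.9% CCGGAA. Cox8a held CCGGAA at 3 places, from -4 to 2, from 27 to 32 and from 34 to 39, and neither CAGCTG nor TATAAA. Cox6a1 and Cox7a2 held CCGGAA at 1 place each. Cox7a1 held neither CAGCTG nor CCGGAA, and its 1 match to the general E box CANNTG, of which CAGCTG is a special case, is a motif that 72.3% of promoters held. GCGCATGC, a partial site of the factor NRF1, was found in Cox6a1 alone of the 5, and in 2.71% of all promoters. Its 2 matches there, from -162 to -155 and from -160 to -153, are 1 stretch that matches on both strands. A MEF2 site was found in none of the 5 windows and in 3.19% of all promoters.

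Libraries held 187834 to 1937581 reads on genes. WT replicate 1 was the shallowest and stood apart in other ways: the part of its aligned reads outside any gene was 45.1%, where the others had 20.8% to 25.7%, and 9.68% of its gene reads fell in genes under 1000 bases, against 16.4% to 17.5%. All isoform transcripts but that of Cox8b (2149 bases in the annotated canonical form) are shorter than 1000 bases, so values are given with and without this library. Reads that did not align made up 46.0% to 50.8% of Jag2sm replicates 1, 2 and 4 and 2.44% to 3.24% of the other 4 libraries. Of 8 MuSC and myoblast markers, Msc had no read in any library. The others, such as Pax7, Myod1 and Cdh15, were read in all 7 libraries. Of the markers of immune, endothelial, fibro-adipogenic and fat cells, Ptprc, Adgre1, Lyz2, Kdr, Lum, Ucp1, Plin1 and Cidec had no read in any. Other members of those lists were read at low levels that are given with the isoform results. Jag2 itself was at 80.7, 114 and 116 CPM (reads scaled to a common effective library size) in WT and at 42.4, 78.8, 71.9 and 77.4 CPM in Jag2sm (log2 fold change -0.64, SE 0.243, edgeR adjusted p = 0.166). A missense allele leaves the transcript in place, so this level does not check the labels.

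The muscle form of subunit 6a was low in every Jag2sm library. Cox6a2 (chr7:127804607-127805559, minus strand, 3 exons) was at 334, 421 and 395 CPM in WT replicates 1 to 3, from 58, 651 and 416 reads. It was at 29.7, 33.9, 11.3 and 44.8 CPM in Jag2sm replicates 1 to 4, from 21, 49, 23 and 55 reads. The genotypes did not overlap, and the highest Jag2sm library lay far below the lowest WT library. The mean was 383 ± 44.3 CPM in WT (SD, n = 3) and 29.9 ± 13.9 CPM in Jag2sm (SD, n = 4), a log2 fold change of -3.71 (SE 0.372), or 13.1-fold lower.

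Cox8b, the muscle form of subunit 8 (chr7:140477069-140480359, minus strand, 2 exons), was at 127, 226 and 161 CPM in WT and at 9.90, 13.8, 5.91 and 16.3 CPM in Jag2sm. These came from 22, 349 and 170 reads in WT and from 7, 20, 12 and 20 reads in Jag2sm. Again the genotypes did not overlap, and Jag2sm replicate 3 was the lowest for Cox8b as for Cox6a2. The mean was 171 ± 50.1 CPM in WT (SD, n = 3) and 11.5 ± 4.55 CPM in Jag2sm (SD, n = 4), a log2 fold change of -3.96 (SE 0.329), or 15.6-fold lower.

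Cox7a1, the muscle form of subunit 7a (chr7:29883569-29885503, plus strand, 4 exons), had the fewest reads of the 3 and the smallest difference. It was at 28.8, 44.0 and 34.1 CPM in WT, from 5, 68 and 36 reads. In Jag2sm it was at 14.1, 12.4, 3.94 and 12.2 CPM, from 10, 18, 8 and 15 reads. The genotypes did not overlap here either, with a gap between the lowest WT library and the highest Jag2sm library that rests on few reads. The mean was 35.6 ± 7.68 CPM in WT (SD, n = 3) and 10.7 ± 4.58 CPM in Jag2sm (SD, n = 4), a log2 fold change of -1.89 (SE 0.390), or 3.71-fold lower.

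Across all 9489 genes that passed the count filter, edgeR called 594 (6.26%), of which 459 (4.84%) were lower and 135 (1.42%) higher in Jag2sm. With library size alone the split was 384 lower and 241 higher, and the median log2 fold change of all genes moved from 0.05 to 0.21. Of the isoform genes, 7 of 8 passed the filter, and Cox4i2 did not. The fit called 3 of them, Cox6a2, Cox8b and Cox7a1, all lower, and nothing is read from that count because this contrast chose the pairs. These 3 were also those whose genotypes did not overlap downward, which held for 12.2% of all tested genes, and 10.3% did not overlap upward. Cox7a1 was no longer called without WT replicate 2 (log2 fold change -1.65) or without WT replicate 3 (-1.96). With WT replicate 1 left out, Cox6a2 was at -3.81, Cox8b at -4.11 and Cox7a1 at -1.98 on the log2 scale. In bulk RNA, fewer cells that make a transcript and less of it per cell cannot be told apart.

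**Figure D1:**
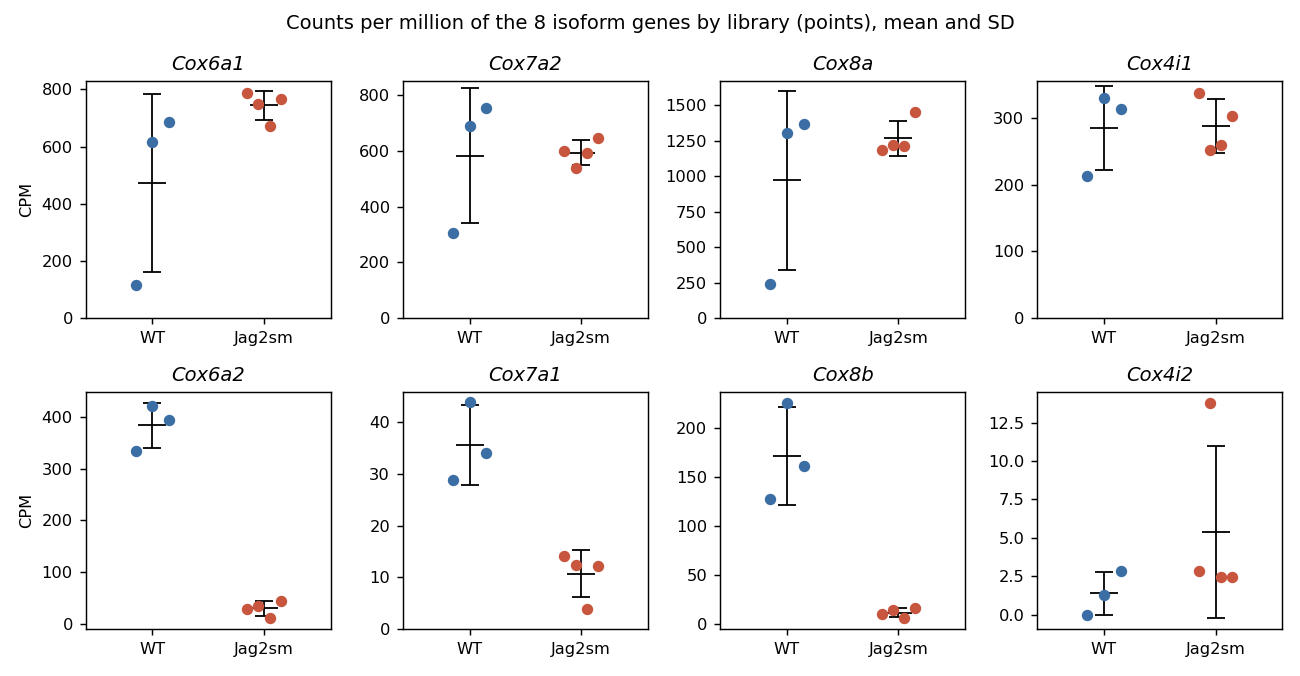
CPM of each isoform gene (vertical axis, its own scale in each panel) in the 3 WT and 4 Jag2sm libraries, 1 point per library, with the mean and SD as a bar. Upper panels hold the ubiquitous forms and Cox4i1, lower panels the muscle forms and Cox4i2, and the WT and Jag2sm points of Cox6a2, Cox7a1 and Cox8b do not overlap.

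The ubiquitous forms did not separate the genotypes. Cox6a1 (chr5:115483701-115487050, minus strand, 3 exons) was at 115, 617 and 687 CPM in WT and at 789, 748, 673 and 768 CPM in Jag2sm. Its low WT value was that of replicate 1, from 20 reads, while WT replicate 3 lay inside the Jag2sm range and WT replicate 2 just below it. The log2 fold change was 0.62 (SE 0.443), and 0.18 without WT replicate 1.

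Cox8a (chr19:7192515-7194997, minus strand, 2 exons) was at 242, 1305 and 1364 CPM in WT and at 1184, 1219.6, 1214 and 1452 CPM in Jag2sm. Here too WT replicate 1 stood far below the rest, and the genotypes overlapped. The log2 fold change of Cox8a was 0.37 (SE 0.458), and its sign turned, to -0.09, when WT replicate 1 was left out.

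Cox7a2 (chr9:79653049-79667162, minus strand, 4 exons) was at 306, 688 and 752 CPM in WT and at 598, 538, 592 and 646 CPM in Jag2sm. The genotypes overlapped through WT replicate 1 alone, since the other WT libraries were higher than each Jag2sm library. The log2 fold change was 0.01 (SE 0.297) with all libraries and -0.29 without WT replicate 1. The part of the share of short transcripts in these WT replicate 1 values was not tested.

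The general form of subunit 4 did not separate the genotypes either. Cox4i1 (chr8:121391505-121400950, plus strand, 5 exons) was at 213, 330 and 314 CPM in WT and at 338, 252, 260.2 and 303 CPM in Jag2sm. The genotypes overlapped, and the log2 fold change of -0.01 (SE 0.227) turned to 0.15 with library size alone. Cox4i2 (chr2:152595625-152606959, plus strand, 5 exons) had 0, 2 and 3 reads in WT and 2, 20, 5 and 3 reads in Jag2sm. Of the 30 reads of Cox4i2 in Jag2sm, 20 came from replicate 2, which reached 13.8 CPM, and the other libraries lay between 0 and 2.85 CPM. The count of 0 in WT replicate 1 allows up to 17.3 CPM, the level of 3 reads at that depth, so that library could not show the level seen in Jag2sm replicate 2.

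Shares within a pair need no scaling between libraries. Of the reads of Cox6a2 and Cox6a1, Cox6a2 took 74.4%, 40.5% and 36.5% in WT replicates 1 to 3 and 3.63%, 4.33%, 1.66% and 5.52% in Jag2sm replicates 1 to 4. The muscle form held a large part of the pair in each WT library and most of it in WT replicate 1, and the Jag2sm libraries held almost only Cox6a1. The mean share was 50.5% ± 20.8 in WT (SD, n = 3) and 3.78% ± 1.62 in Jag2sm (SD, n = 4), and 38.5% in WT without replicate 1. Counting error was small beside this: the exact 95% binomial interval ran from 33.7% to 39.4% for WT replicate 3 and from 4.18% to 7.12% for Jag2sm replicate 4. These intervals cover counting error only.

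Cox8b took 34.4%, 14.7% and 10.6% of the reads of its pair in WT and 0.829%, 1.12%, 0.485% and 1.11% in Jag2sm. The genotypes did not overlap, and Cox8a made up nearly all reads of the pair in Jag2sm MuSCs. The mean share was 19.9% ± 12.7 in WT (SD, n = 3) and 0.886% ± 0.300 in Jag2sm (SD, n = 4), a difference of -19.0 percentage points that was -11.8 without WT replicate 1. Per transcript length the mean share of Cox8b was 6.48% in WT and 0.234% in Jag2sm, because its canonical transcript is 2149 bases long and that of Cox8a 564. Without WT replicate 1 the WT mean per length was 3.67%, and the difference was -3.44 percentage points. Which annotated form of Cox8b the reads came from was not measured here. Nor was it tested whether counts of these long reads scale with transcript length, so the per-length shares are an alternative scale.

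Cox7a1 took 8.62%, 6.0% and 4.34% of the reads of its pair in WT and 2.31%, 2.26%, 0.662% and 1.86% in Jag2sm. Cox7a2 supplied most reads of this pair in each WT library. Cox6a1 also supplied most of its pair in WT replicates 2 and 3, but Cox6a2 took 40.5% and 36.5% there. The mean share of Cox7a1 was 6.32% ± 2.16 in WT (SD, n = 3) and 1.77% ± 0.768 in Jag2sm (SD, n = 4). The 95% intervals of WT replicate 1, from 2.86% to 19.0%, and Jag2sm replicate 1, from 1.11% to 4.21%, overlapped. Per transcript length, with the same limit as for Cox8b, the mean share was 11.0% in WT and 3.22% in Jag2sm.

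Cox4i2 took 0%, 0.391% and 0.898% of the reads of its pair in WT and 0.830%, 5.21%, 0.938% and 0.800% in Jag2sm. The genotypes overlapped, and Jag2sm replicate 2 alone stood apart, with a 95% interval from 3.21% to 7.93%. In WT replicate 1, 0 of 37 reads allows a share of up to 8.11% when the limit is set at 3 reads, and the exact 95% interval reaches 9.49%. The difference of the mean shares was 1.51 percentage points and 0.426 without Jag2sm replicate 2.

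**Figure D2:**
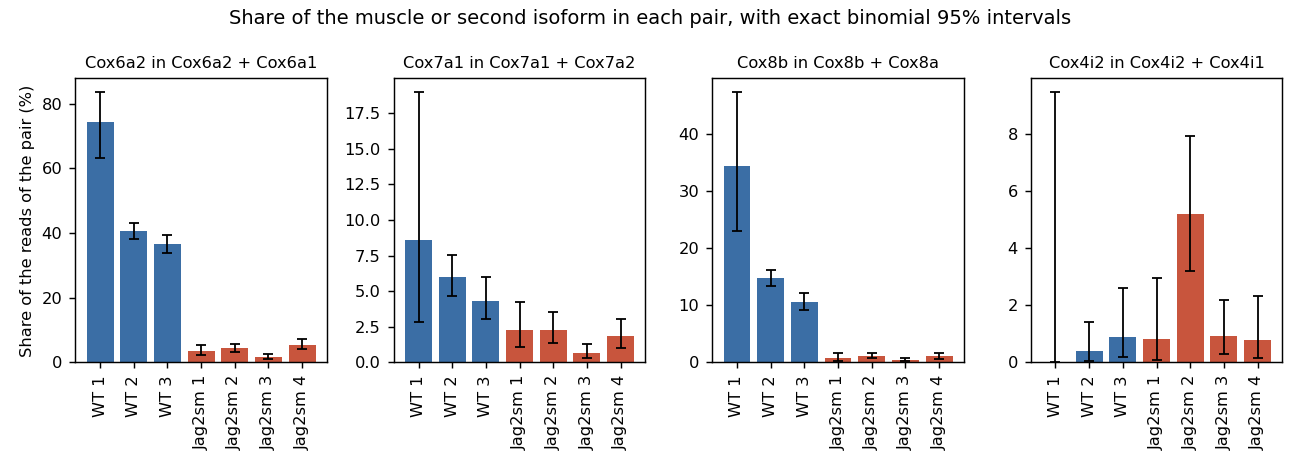
Share of the muscle or second isoform among the reads of its pair (vertical axis, percent) in each library, WT in blue and Jag2sm in red, with exact binomial 95% intervals. Cox6a2 is at 36.5% or more in WT and 5.52% or less in Jag2sm, while Cox4i2 stands apart in Jag2sm replicate 2 alone.

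Summed over both isoforms, all 4 pairs overlapped between the genotypes over the 7 libraries, and WT replicate 1 decided this for 3 of them. The pair of Cox6a2 and Cox6a1 summed to 856 ± 353 CPM in WT (SD, n = 3) and 774 ± 62.4 CPM in Jag2sm (SD, n = 4). Without WT replicate 1 the WT mean was 1060 CPM, above each Jag2sm library, the highest of which was at 819 CPM. The pair of Cox8b and Cox8a summed to 1142 ± 669 CPM in WT (SD, n = 3) and 1279 ± 127 CPM in Jag2sm (SD, n = 4), and to 1528 CPM in WT without replicate 1. The pair of Cox7a1 and Cox7a2 summed to 732 and 786 CPM in WT replicates 2 and 3 and to 550.0 to 658 CPM in Jag2sm. With WT replicate 1 left out, these 3 sums were higher in WT replicates 2 and 3 than in each Jag2sm library. That of Cox4i1 and Cox4i2 still overlapped. The share of all genes that separate without WT replicate 1 was not computed, so nothing is read from this. The sums also hold the muscle forms: mean Cox6a2 alone was 408 CPM in WT without replicate 1 and 29.9 CPM in Jag2sm.

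Levels were set side by side between genes per transcript length. It was not tested whether counts of these long reads scale with length, so the order on this scale depends on that division. On the scale of CPM per kilobase, the mean WT levels were 1720.4 for Cox8a, 828 for Cox6a1, 715 for Cox7a2, 564 for Cox6a2, 365 for Cox4i1, 80.8 for Cox7a1, 79.7 for Cox8b and 1.82 for Cox4i2. The order of the 4 highest did not hold in WT replicate 1, where Cox6a2 was highest per kilobase. The WT means of Cox7a1 and Cox8b were nearly level per kilobase but not in CPM, at 35.6 and 171. In Jag2sm the mean levels per kilobase were 2247 for Cox8a, 1304 for Cox6a1, 729 for Cox7a2, 368 for Cox4i1, 44.0 for Cox6a2, 24.2 for Cox7a1, 7.10 for Cox4i2 and 5.34 for Cox8b. Without Jag2sm replicate 2 the Cox4i2 level was 3.40 per kilobase, below that of Cox8b with all libraries. In CPM the Jag2sm means were 11.5 for Cox8b and 5.39 for Cox4i2. Both per kilobase and in CPM, mean Cox6a2 stood among the ubiquitous forms in WT and below all 4 general forms in Jag2sm.

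The 3 muscle forms did not differ by the same factor. Of the reads of Cox6a2, Cox8b and Cox7a1 as a whole, Cox7a1 made up 5.88%, 6.37% and 5.79% in WT and 26.3%, 20.7%, 18.6% and 16.7% in Jag2sm. These shares rest on 85, 1068 and 622 reads in WT and on 38, 87, 43 and 90 reads in Jag2sm, and the genotypes did not overlap. Cox6a2 remained the largest of the 3 in all 7 libraries, at 61.0% to 68.2% in WT and 53.5% to 61.1% in Jag2sm.

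**Figure D3:**
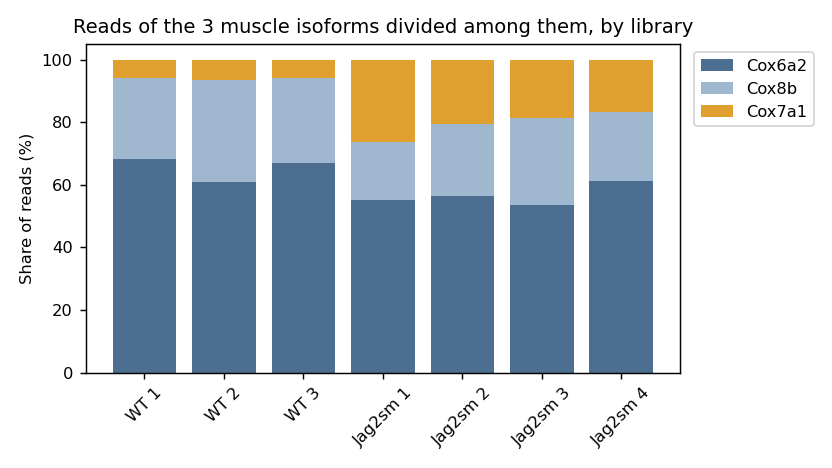
Reads of Cox6a2, Cox8b and Cox7a1 divided among the 3 genes (vertical axis, percent of their summed reads) in each of the 7 libraries. Cox7a1 takes 5.79% to 6.37% in WT and 16.7% to 26.3% in Jag2sm.

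Genes whose pattern over the libraries was nearest were found by the root mean square (RMS) difference of log2 CPM, each gene centred on its own mean. Cox6a2 and Cox8b were each other's nearest gene over the 7 libraries, at an RMS difference of 0.24, and next came Fgf21 and Unc45b, a myosin chaperone, for both. Without WT replicate 1, Cox6a2 was nearest to Cox8b (0.24), Casq1, a calcium store protein of the sarcoplasmic reticulum (0.26), and Mef2c, a muscle transcription factor (0.26). Cox8b was then nearest to Cd36, a fatty acid carrier (0.24), Cox6a2 (0.24) and Myh4, a fast myosin (0.37). Cox7a1 stood at an RMS difference of 1.04 from Cox6a2 and 1.06 from Cox8b. Its nearest genes were 1700025L06Rik (0.31), Tspan14 (0.32) and Gatm (0.32), and without WT replicate 1 they were Tgfb3 (0.16), Nrap (0.19) and Nuak1 (0.21). The libraries of a genotype share their mutation, so these distances describe the pattern and were not tested.

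Differentiation markers moved with the muscle isoforms. Of 13 differentiating muscle markers, a list chosen with earlier results of these data known, 12 were tested and all 12 were called lower. Over all tested genes 4.84% were called lower. The median log2 fold change of the 12 was -3.24 beside 0.05 over all tested genes. Among them were Myog (-2.33, SE 0.545, edgeR adjusted p = 0.0300) and the embryonic myosin Myh3 (-3.21, SE 0.475, adjusted p = 0.00539). Tnnc2, which had 2 reads, was not tested. Summed over the list, these markers were at 24582 to 36892 CPM in WT and at 996 to 6574 CPM in Jag2sm, and Jag2sm replicate 3 was lowest, as it was for Cox6a2, Cox8b and Cox7a1. Within WT the order was otherwise, since replicate 1 had the highest marker sum and the lowest CPM of all 3 isoforms. For every 1000 CPM of these markers, Cox6a2 stood at 9.06, 17.1 and 13.9 CPM in WT and at 6.07, 11.2, 11.4 and 6.82 CPM in Jag2sm, which overlap. Cox8b likewise overlapped, at 3.44, 9.18 and 5.67 in WT and 2.02, 4.55, 5.93 and 2.48 in Jag2sm. Cox7a1 did not overlap on this scale, at 2.89, 4.10, 3.96 and 1.86 in Jag2sm against 0.781, 1.79 and 1.20 in WT, though Jag2sm replicate 4 lay barely above WT replicate 2. The part of the differentiation markers in the isoform differences was not tested.

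Markers of other cells were sparse. The summed level of 5 endothelial markers was 2.59 to 11.5 CPM in WT and 2.45 to 14.1 CPM in Jag2sm. That of 5 fibro-adipogenic markers was 0 to 16.1 CPM in WT and 6.41 to 44.9 CPM in Jag2sm, with the highest value in Jag2sm replicate 2, the library with most Cox4i2. Of these, Ly6a reached 19.3 CPM in Jag2sm replicate 2 and 2.59 CPM at most in WT, and Cd34 was at 0 to 13.3 CPM in WT and 2.96 to 28.5 CPM in Jag2sm. The endothelial gene Pecam1 and the fibro-adipogenic gene Pdgfra were higher in each Jag2sm library than in each WT library, at 4.84 CPM or less, from too few reads to be tested. That of 5 immune markers was 0 to 1.94 CPM in WT and 0.985 to 4.08 CPM in Jag2sm, that of 6 adipocyte markers 7.59 to 17.3 and 6.91 to 14.7 CPM, and that of 4 glial markers 0 to 1.29 and 1.48 to 5.66 CPM. The 5 mural markers summed to 1026 to 1921 CPM in WT and 847 to 2285 CPM in Jag2sm, mostly Acta2, which cultured myogenic cells also make. Of these, the pericyte gene Rgs5 was at 11.5, 12.9 and 14.2 CPM in WT and at 645, 29.7, 40.4 and 25.3 CPM in Jag2sm replicates 1 to 4, with no overlap (log2 fold change 3.73, SE 1.32, edgeR adjusted p = 0.135). Of 8 MuSC and myoblast markers, 7 were tested and Des, a muscle intermediate filament, was the 1 called (log2 fold change -1.63, SE 0.361, edgeR adjusted p = 0.0244). Pax7 was not called but did not overlap upward, at 28.8, 95.7 and 80.6 CPM in WT and 100, 129, 172 and 125 CPM in Jag2sm. Its log2 fold change was 0.80 (SE 0.308, edgeR adjusted p = 0.174), and 10.3% of all tested genes did not overlap upward. The other markers tested, apart from Des, overlapped. The part of other cells in the Cox4i2 value was not tested.

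Calls among other COX genes were near the share over all tested genes, so nothing is read from their number. Over 39 genes in the 3 lists of other subunits, mitochondrially encoded subunits and assembly factors, 27 were tested and 1 was called, 3.70% beside 6.26% of all tested genes. Of 12 other subunits, 9 were tested and none was called by edgeR, with a median log2 fold change of -0.10, where 2 had an unadjusted p under 0.05 and DESeq2 called 1. Cox6b2, known as the testis form of subunit 6b, was at 0, 39.4 and 27.5 CPM in WT and at 56.6, 104, 78.3 and 84.8 CPM in Jag2sm. Its genotypes did not overlap, and it missed the threshold (log2 fold change 1.48, SE 0.405, edgeR adjusted p = 0.0580), but it was called with the replicate number as a block (adjusted p = 0.0395), with DESeq2 (0.0137), with library size alone (0.0373) and without WT replicate 1 (0.0345). Cox7b had a log2 fold change of -0.79 (SE 0.329, adjusted p = 0.209) and Ndufa4, a late-joining subunit, of -0.55 (SE 0.376, adjusted p = 0.467).

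Of the 3 subunits encoded by mitochondrial DNA, 2 were tested and none was called by edgeR or DESeq2, with 0 at an unadjusted p under 0.05. mt-Co1 was at 3257, 1934 and 2145 CPM in WT and at 1027, 2027, 1481 and 1786 CPM in Jag2sm, with overlap (log2 fold change -0.63, SE 0.312, adjusted p = 0.302). mt-Co2 had a log2 fold change of -0.57 (SE 0.609, adjusted p = 0.667), which turned to 0.15 without WT replicate 1, and at most 17 reads in a library, and mt-Co3 was not tested.

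Of 24 assembly factors, 16 were tested and 1 was called. Cox19, which serves copper delivery to the enzyme, was at 63.4, 65.9 and 80.6 CPM in WT and at 43.8, 41.5, 34.0 and 41.6 CPM in Jag2sm. The genotypes did not overlap (log2 fold change -0.83, SE 0.204, edgeR adjusted p = 0.0368). The call was lost with the block (adjusted p = 0.136), with DESeq2 (0.0716), with library size alone (0.0785) and when any library but WT replicate 1 was left out (0.0575 to 0.202). Of 11 regulators of mitochondrial biogenesis, all were tested and none was called by edgeR or DESeq2, with 1 at an unadjusted p under 0.05 and a median log2 fold change of 0.03. The largest differences were those of Nrf1 (0.70, SE 0.248, adjusted p = 0.134), Esrra (0.44, SE 0.455, adjusted p = 0.648) and Ppargc1b (-0.43, SE 0.354, adjusted p = 0.553).

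**Figure D4:**
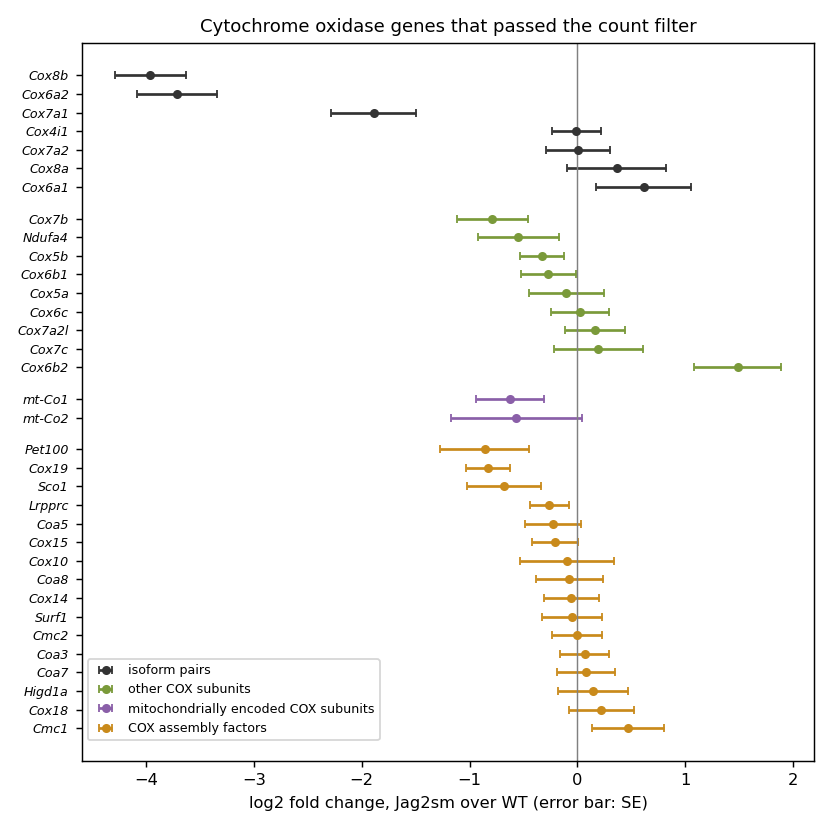
Log2 fold change of Jag2sm over WT (horizontal axis) with its SE for each COX gene that passed the count filter, the isoform pairs at the top and the other lists beneath. Cox8b (-3.96), Cox6a2 (-3.71) and Cox7a1 (-1.89) lie to the left of every other gene shown.

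Several muscle forms of other proteins that come as isoform pairs were called lower, in a list chosen with earlier results of these data known. Of 7 such forms, 5 were tested and 4 were called, all lower, with a median log2 fold change of -1.76, where 4.84% of all tested genes were called lower. They were Ckmt2, the mitochondrial creatine kinase (-5.57, SE 0.883, edgeR adjusted p = 0.00652), Pgam2, a phosphoglycerate mutase (-3.14, SE 0.469, adjusted p = 0.00539), Pygm, a glycogen phosphorylase (-1.76, SE 0.408, adjusted p = 0.0294), and Eno3, an enolase (-1.48, SE 0.320, adjusted p = 0.0217). Slc25a4, an ATP/ADP carrier, was tested and not called (-0.58, SE 0.239, adjusted p = 0.205), and Ckm and Eef1a2 were not tested. Of 7 ubiquitous partners, 6 were tested and Eno1 was the 1 called (-1.48, SE 0.345, adjusted p = 0.0298). The share of Pgam2 in its pair was 98.7% to 99.0% in WT and 65.5% to 95.7% in Jag2sm, and that of Pygm was 81.3% to 95.7% in WT and 32.7% to 76.9% in Jag2sm. Slc25a4 took 75.1% to 77.5% of its pair in WT and 67.5% to 70.5% in Jag2sm. The shares of Ckm, Eno3 and Eef1a2 overlapped between the genotypes, that of Eno3 with a mean share of 83.3% in WT and 85.6% in Jag2sm. Ckm had at most 5 reads in a library and Eef1a2 at most 7. The share of Ckmt2 could not show a shift. Ckmt2 had 0, 1, 1 and 3 reads in Jag2sm, and Ckmt1 had a read only in Jag2sm replicate 4.

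Counts near other genes limit some of these values. Exons of Cox6a2 overlap Itgad, those of Cox8b overlap Psmd13, those of Cox7a1 overlap Gm53356 and those of Cox4i1 overlap Emc8 and Gm27021, each on the opposite strand. The strand setting of the counting is not given in the sources used here, so how reads within these overlaps were counted is not known. A pseudogene copy of Cox6a1, Gm50432 (91.5% identical), held 14 reads in all, and adding them moved the difference in the Cox6a2 share from -46.7 to -46.6 percentage points. Reads set aside for low mapping quality, 9.80% to 14.3% of aligned reads per library, are in no gene count. Loss of isoform reads among them was not measured.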

How the data were processed

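RNA of MuSCs was measured in 7 libraries, 3 WT and 4 Jag2sm. Per the labels and the study's methods, the authors made direct cDNA libraries, pooled them over 2 PromethION flow cells, called bases with dorado 0.5.3, used minimap2 2.17 for alignment to GRCm39, and took counts per gene from HTSeq. The authors deposited raw counts, which were not normalized. The annotation release and strand setting are not given in the sources used here. The authors' DESeq2 table, which holds fold changes and p-values of the genotype comparison, was not used. The 5 summary counts of each file stayed out of the tests.

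Genes were kept by filterByExpr (minimum count 10, minimum total 15), which left 9489, normalized by TMM and compared with edgeR 4.0.16 in R 4.3.3 (glmQLFit, glmQLFTest, no covariates), and a gene was called where its adjusted p (Benjamini-Hochberg) was under 0.05. The SE is the log2 fold change divided by the square root of F. Log2 CPM used a prior count of 2. Isoform shares have exact Clopper-Pearson 95% intervals from SciPy 1.17.1, and a count of 0 was limited at 3 counts. DESeq2 1.42.0 was an alternative. The fit was tested on simulated data.

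The members and gene lists were chosen with earlier results of these data known. Named genes are every member, the called genes of each other list or otherwise its 3 largest log2 fold changes, the 3 genes of at least 20 CPM nearest in pattern to each muscle isoform with and without WT replicate 1, and Jag2. From lists without a call, mt-Co3, Rgs5 and other markers at or near 0 are also named, after their values were seen. The MuSC genes Pax7, Myod1, Cdh15 and Msc are named in addition to the called Des. Lengths, positions and overlaps came from GENCODE M39, which held 56017 of the 56748 identifiers, with bedtools 2.31.1. Pseudogene copies of at least 80% identity over 200 bases came from BLAST+ 2.17.0.

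The batch label equals the replicate number, and what a batch was is not stated in the sources used here. Numbers 1 to 3 were used as if they paired the genotypes. Deviations from the genotype means correlated at 0.0740, 0.0144 and 0.0539 between libraries of the same number, across genes, which are not independent replicates. The block was an alternative because the study's methods name no covariate.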

Additional observations from a re-analysis of the deposited data

Results flagged for a closer look

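Among the 4 Jag2sm libraries, 4 values lay farther from the rest than Dixon's criterion allows, which chance gives in about 1 in 20 groups. Cox4i2 was at 13.8 CPM in Jag2sm replicate 2, and its share of the pair in that library was 5.21%. Cox8a was at 1452 CPM in Jag2sm replicate 4, and its pair with Cox8b summed to 1468 CPM there.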

How the results depend on the processing

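Over the alternatives the log2 fold change of Cox6a2 ranged from -4.08 to -3.40, that of Cox8b from -4.20 to -3.67 and that of Cox7a1 from -2.07 to -1.55, given as a description. With at least 10 counts in every library, 1 member, Cox6a2, was still called, since Cox8b and Cox7a1 then failed the filter, and 274 genes were called in all (43 higher, 231 lower). Without a filter 1248 were called (468 higher, 780 lower), and 241 were higher with library size alone and 206 with DESeq2. Leaving out 1 library gave 251 to 616 calls, 20 to 220 higher and 221 to 466 lower, and 0 to 2 other COX genes; the lowest total came without Jag2sm replicate 2, and 343 and 341 genes were called without WT replicates 2 and 3. With the replicate block 565 genes were called, and among the members and named COX genes the block changed the calls of Cox19 and Cox6b2 and no other. The blocked differences in share were -47.3 percentage points for Cox6a2, -4.58 for Cox7a1, -19.1 for Cox8b and 1.90 for Cox4i2. They leave out Jag2sm replicate 4 and equal the differences without that library, so they are no check of the pairing. Per transcript length the differences were -7.82 for Cox7a1 and -6.24 for Cox8b, by the lengths of the transcripts, and -5.92 and -3.44 without WT replicate 1. Scaling of these long reads with length was not tested. Leaving out 1 library gave -53.7 to -34.7 for Cox6a2, -5.54 to -3.40 for Cox7a1, -23.7 to -11.8 for Cox8b and 0.426 to 1.90 for Cox4i2. Adding pseudogenes named after an isoform was not run, because 0 are so named, and copies found by sequence were added instead, an alternative chosen after seeing the data. Low counts limit Cox7a1 and Cox4i2, Cox8b in Jag2sm, and every member in WT replicate 1.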
